A study of Mus musculus with 6 samples.

Results

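Amino acid transporter genes were followed in mouse oocyte RNA, in 3 libraries of mice given AMH and 3 control libraries. The members were taken by symbol alone: every protein-coding row of the count table named as a member of the solute carrier (Slc) families 1, 3, 6, 7, 36, 38 or 43, which gave 64 of the 54532 genes in the table. AMH is anti-Müllerian hormone, a TGF-beta family hormone made by granulosa cells, and the title of the series concerns AMH treatment, oocyte quality and live birth. The AMH group was oocytes of C57BL/6J mice given 300 ng of recombinant mouse AMH, made in bacteria, by injection into the abdominal cavity each day from 21 days of age. The control group was oocytes of C57BL/6J mice labelled as control, with the same starting age of 21 days. The labels do not say whether the control mice were injected. Both groups carry an age of 6 to 7 weeks. The labels give no oocyte number or stage, do not say whether cumulus cells were removed, and leave unsaid which animals went into which library. The p-values therefore rest on differences among libraries that may be only technical.

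Amino acids cross membranes through carriers that differ in substrate and in driving force. Some move with sodium or protons, some exchange one amino acid for another, and one class works as a pair of a glycosylated heavy subunit (Slc3) and a catalytic light subunit (Slc7). In the ovarian follicle the oocyte takes up several amino acids itself, among them glycine, which mouse oocytes and embryos use to regulate cell volume. Others reach it through gap junctions from the cumulus cells that surround it, and in the mouse the oocyte raises the cumulus cells' expression of Slc38a3. The symbol rule also brought in carriers of other substrates: Slc6a2, Slc6a3 and Slc6a4 carry monoamines, Slc6a8 carries creatine and Slc43a3 carries purine nucleobases. Slc7a6os is named for its place opposite Slc7a6 and is not a carrier; its yeast counterpart takes part in nuclear import of RNA polymerase II. The label therefore holds for most of the 64 genes but not for all.

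Count totals were 66392859 to 69395450 per AMH library and 69997949 to 72109080 per control library. CPM below is the count over the TMM-scaled library size, in the usual unit, and 1 count was worth 0.0123 to 0.0153 CPM in AMH libraries and 0.0152 to 0.0156 CPM in control libraries. All 24 genes of the oocyte marker list were found, with Sohlh1 at 0 in AMH 2 and in controls 1 and 2, and their summed CPM was 15973, 15449 and 26158 CPM in AMH 1, 2 and 3, against 31505, 34903 and 26718 CPM in controls 1, 2 and 3. All 23 oocyte markers tested had a log2 fold change below 0 (median -0.82). Without overlap 17 of them were lower in AMH libraries (as were 23.3% of all genes tested). The 22 cumulus and granulosa markers summed to 2711, 2422 and 2716 CPM in AMH 1, 2 and 3, against 489, 291 and 2831 CPM in controls 1, 2 and 3. Ereg, at 0 in control 2, was the only one of them at 0 in any library. Inha, Gja1 and Fst made up most of that sum in each library. Of these markers 19 had a log2 fold change above 0 and 3 below. Without overlap 7 were higher in AMH libraries (as were 26.9% of all genes tested), so control 3 lay below every AMH library for them. Inhba, Amhr2, Fshr and Foxl2 were among these 7. Cyp19a1 was lower without overlap (-0.65, as were 23.3% of all genes tested). Summed CPM of 9 oviduct epithelium markers was 758, 419 and 142 CPM in AMH 1, 2 and 3, against 70.0, 21.5 and 171 CPM in controls 1, 2 and 3, and Cdh16 and Msln were at 0 in some libraries. All 8 of them tested had a log2 fold change above 0, and 6 were higher in AMH libraries without overlap (as were 26.9% of all genes tested). The 11 macrophage markers summed to 103 to 134 CPM in AMH libraries and 18.3 to 52.4 CPM in control libraries, with Adgre1 and C1qa at 0 in control 2. Of these 11, 10 had a log2 fold change above 0 and 1 below, and 8 were higher in AMH libraries without overlap (beside the same 26.9%). The 11 theca and stroma markers summed to 944 to 2289 CPM in AMH libraries and 109 to 1213 CPM in control libraries, and the defining theca genes Insl3 and Cyp17a1 were at or near 0 throughout. Cyp11a1 made up most of that sum, with 891 to 2132 CPM in AMH libraries and 97.1 to 1118 CPM in control libraries. Of the 8 theca and stroma markers tested, 5 had a log2 fold change above 0 and 3 below, and all overlapped between groups. Erythroid markers (7 genes) summed to 22.8 to 357 CPM in AMH libraries and 1.11 to 5.64 CPM in control libraries, with Slc4a1 at 0 in all controls. Sums were also taken for endothelial markers (7 genes), at 115 to 198 CPM in AMH libraries and 205 to 246 CPM in control libraries with Cldn5 at or near 0. Pecam1 made up most of that sum and was lower in AMH libraries, while Cdh5 and Egfl7 were higher without overlap (log2 fold changes -0.63, 1.48 and 1.72). Ciliated cell markers (10 genes found) summed to 65.5 to 73.6 CPM in AMH libraries and 67.9 to 81.7 CPM in control libraries, mostly from Dnah9 (-0.66). Of these 10, however, 8 had a log2 fold change above 0 (median 1.96) and 7 were higher in AMH libraries without overlap (as were 26.9% of all genes tested), such as Foxj1 (4.37), Cfap100 (4.39), Stoml3 (3.92) and Tekt1 (3.71). No gene of these marker lists passed edgeR's adjusted test. The part of these markers in the results below was not tested, and the cumulus sum served only as a covariate in an added fit. Control 3 thus had the highest cumulus marker sum of the 6 libraries, and AMH 3 had nearly the oocyte marker sum of control 3. In bulk RNA fewer cells of a type and less RNA per cell cannot be told apart.

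Several members are classic targets of the amino acid response, in which the factor ATF4 binds an element with the core TGATGNAA when amino acids run short. RefSeq promoter windows (GRCm38.p6, from 250 bases before to 50 bases after each start) were found for 46 of the 64 members, in 67 windows. The core, searched on both strands, stood in 3.97% of all 32851 windows and in 7.46% of the member windows, which belong to Slc7a11, Slc1a4, Slc7a7 and Slc6a21. They are printed because they show where the letters lie in members whose AMH values went in opposite directions, as given further on. Capitals mark the core on either strand, and positions count from the start base as 1. In the Slc7a11 window (chr3:50443564-50443863, minus strand) the core lay at -66 to -59 and, on the other strand, at -47 to -40.

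Slc7a11: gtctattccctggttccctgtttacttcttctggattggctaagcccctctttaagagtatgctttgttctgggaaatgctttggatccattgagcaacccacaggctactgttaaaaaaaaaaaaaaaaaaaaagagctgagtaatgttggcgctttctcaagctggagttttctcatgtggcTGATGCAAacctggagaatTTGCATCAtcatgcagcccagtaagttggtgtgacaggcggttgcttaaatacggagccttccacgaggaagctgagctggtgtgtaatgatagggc
Slc1a4: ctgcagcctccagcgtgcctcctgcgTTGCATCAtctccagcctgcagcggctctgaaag
Slc7a7, upstream: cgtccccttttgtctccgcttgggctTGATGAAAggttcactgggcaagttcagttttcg
Slc7a7, at the start: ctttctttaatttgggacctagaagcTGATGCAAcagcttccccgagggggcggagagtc
Slc6a21: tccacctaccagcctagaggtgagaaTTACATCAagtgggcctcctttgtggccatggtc

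The Slc1a4 stretch (chr11:20332684-20332743, minus strand) held the core across the start itself, from -4 to 4, and the Slc6a21 stretch (chr7:45282819-45282878, plus strand) from -28 to -21. Both Slc7a7 stretches (chr14:54418052-54418111 and chr14:54417912-54417971, minus strand) came from 1 window, with the core at -141 to -134 and at -1 to 7, and the core near the start also fell in another, overlapping window of the gene. Only 0.0700% of all windows held the core more than once, and the Slc7a11 window and this Slc7a7 window were among them. A match of letters is not evidence of binding, and the other member windows simply lack these letters.

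Between genes, levels are compared as the deposited FPKM, which is per gene length. Of the 64 members 26 had a mean of at least 1 FPKM over the 6 libraries and 12 a mean of at least 10 FPKM. Slc3a2, the heavy subunit shared by several light subunits, was the most abundant member in each of the 6 libraries, with 146, 127 and 160.2 FPKM in AMH 1, 2 and 3, against 153, 146 and 172 FPKM in controls 1, 2 and 3. Next came Slc43a3 with 28.5 to 53.0 FPKM, Slc7a8 with 12.3 to 52.5 FPKM, Slc6a6 with 25.9 to 42.2 FPKM and Slc7a6os with 23.0 to 41.6 FPKM. Their ranges over the libraries overlap. Slc43a3 exceeded Slc7a6os in each of the 6 libraries, and the other pairs among these 4 changed order between libraries. Slc7a5 (19.7 to 26.8 FPKM), Slc7a2 (11.1 to 25.7 FPKM), Slc6a15 (11.5 to 20.6 FPKM), Slc6a20a (10.7 to 21.0 FPKM) and Slc6a9 (10.6 to 21.6 FPKM) followed, again with overlapping ranges. Of these, Slc7a5 exceeded Slc6a20a and Slc6a9 in each of the 6 libraries, and the other pairs changed order. Slc38a10 (2.92 to 28.7 FPKM) and Slc38a2 (0.738 to 22.5 FPKM) reached similar means with a far wider spread between libraries.

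**Figure D1:**
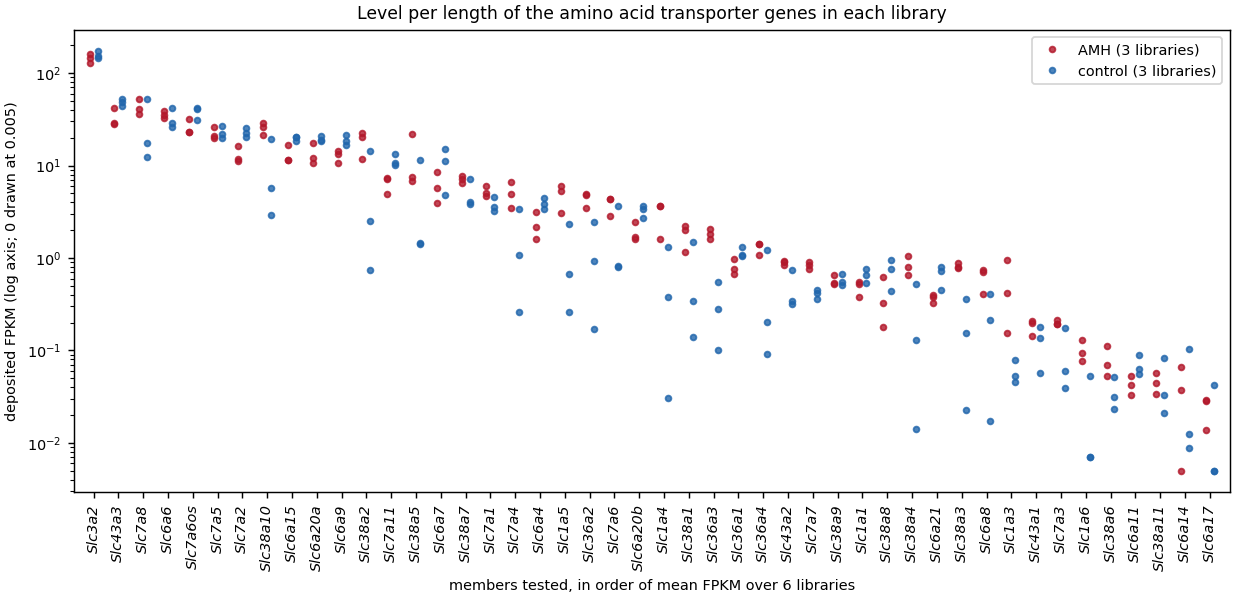
Deposited FPKM (log axis) of the 46 members tested, in order of their mean over 6 libraries, with 1 point per library (AMH red, control blue; the value 0 is drawn at 0.005). Slc3a2 lies above every other member in each library, and the controls of Slc38a2, Slc38a10 and Slc1a4 spread much more widely than those of Slc7a2 or Slc6a9.

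With TMM scaling AMH libraries had lower values than control libraries for Slc7a2, Slc7a11, Slc6a9 and Slc6a15, and higher values for Slc1a5, Slc38a3, Slc38a10 and Slc36a3. Scaled to the oocyte list, the log2 fold changes of the lower genes were near 0 for Slc7a2 (-0.11) and Slc7a11 (-0.068). They turned sign for Slc6a9 (0.17) and Slc6a15 (0.11). Carriers of 1 substrate could go either way, as the cationic amino acid carriers Slc7a2 (-0.82) and Slc7a1 (0.45) did in log2 fold change. None of these differences passed the test. The test was edgeR's quasi-likelihood test over 18868 genes with Benjamini-Hochberg adjustment at 0.05, and it called 0 members, where 0% of all genes tested were called. A filter on low counts left 46 of the 64 members. Their median log2 fold change (AMH over control) was 0.50, against -0.01 over all genes tested, with 26 members above 0 and 20 below. This median moved with the filter and the libraries. With at least 5 CPM in 3 libraries, which left 29 members, it was 0.16, against -0.025 over all genes. Without control 3 it was 0.72, against 0.025. A gene on the other strand overlaps 24 of the 64 members, Slc7a2, Slc7a11, Slc6a9 and Slc7a5 among them, and the strand setting of the counting is not given in the sources used here, so such reads cannot be told apart.

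At an unadjusted p under 0.05 there were 6 members higher in AMH libraries (13.0%, against 20.2% of all genes tested) and 10 lower (21.7%, against 17.3%). Every AMH library lay above every control for 15 of 46 members (32.6%, against 26.9% of all genes tested) and below every control for 11 (23.9%, against 23.3%). The shares without overlap lie near those of all genes. The unadjusted split of 6 higher and 10 lower members moved with the scaling, as did that of all 18868 genes tested (3814 higher and 3266 lower with TMM). With library size only it was 9 and 2, against 5256 and 1237 of all genes. With upper-quartile scaling it was 6 and 11, against 3392 and 4854 of all genes. With scaling to the oocyte marker list it was 15 and 0, against 7002 and 16 of all genes. The median log2 fold change of all genes tested shifted to 0.26, -0.23 and 0.74 under these 3 scalings, so each direction below is relative to TMM.

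**Figure D2:**
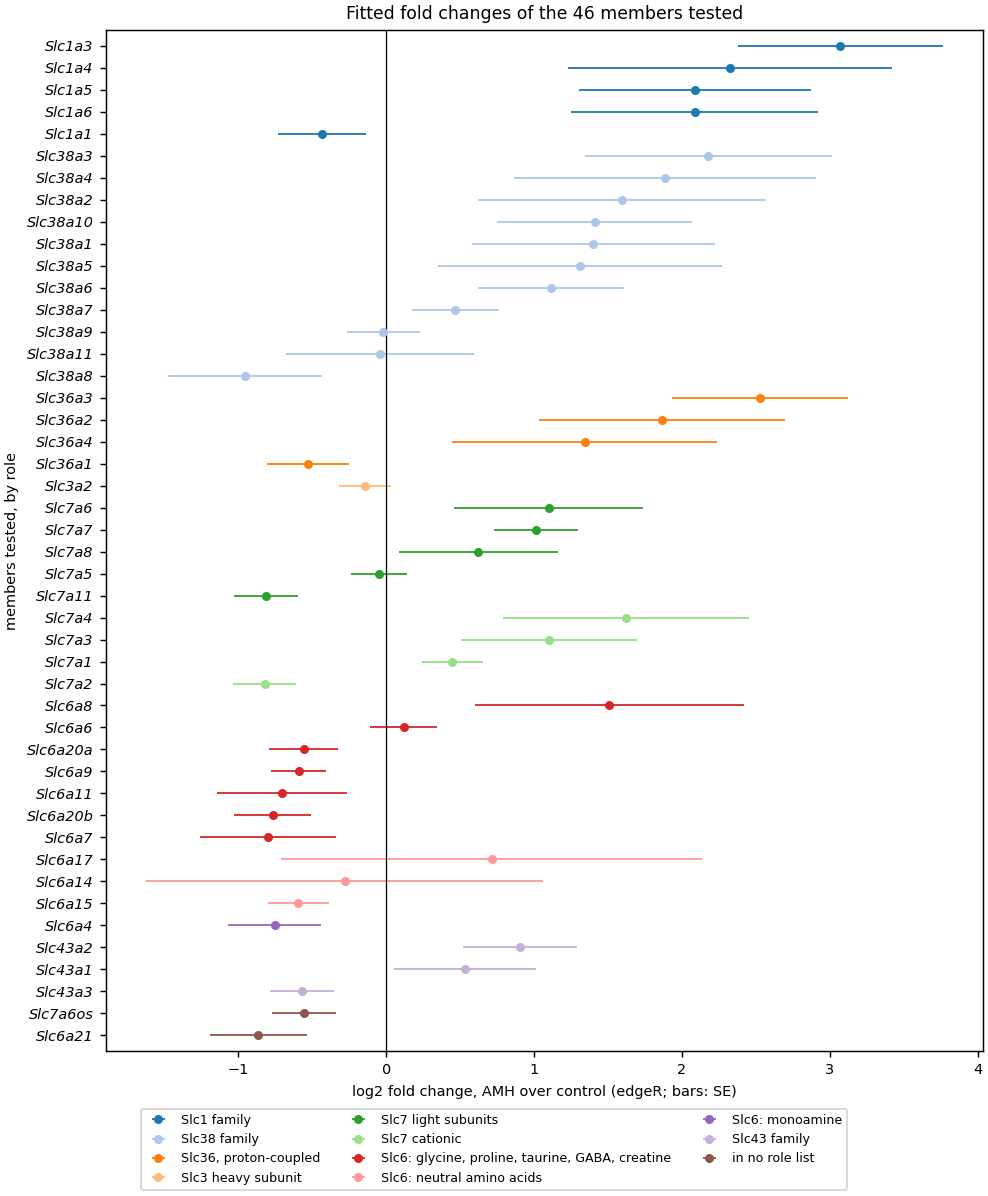
Fitted log2 fold change (AMH over control, edgeR, TMM scaling) of the 46 members tested, grouped by role, with bars of 1 SE. The Slc1, Slc38 and Slc36 families lie mostly above 0, up to 3.07 for Slc1a3, while most Slc6 members lie between -0.86 and 0, and no member passed the adjusted test.

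DESeq2, run on the same genes, called 5 members higher (16.3% of all genes tested were called higher) and 3 lower (7.78%). The 5 were Slc1a3, Slc1a5, Slc36a3, Slc38a3 and Slc7a7, and the 3 were Slc7a2, Slc7a11 and Slc6a20b. Without control 3, edgeR called 22 of 50 members tested higher (26.8% of all genes) and 6 lower (11.2%). The 6 were Slc7a2, Slc7a11, Slc6a9, Slc6a7, Slc6a20b and Slc6a21. Without AMH 3 it called 1 of 49 higher, Slc1a3 (1.45% of all genes), and 5 lower, namely Slc7a2, Slc6a15, Slc6a20a, Slc43a3 and Slc7a6os (6.73%). Leaving out any other single library gave 0 member calls. Slc7a2 was the only member called lower in all 3 of these fits, and Slc1a3 the only one called higher in all 3.

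Among the heavy and light subunits, the values of the shared partner overlapped between groups while the light subunits went different ways. Slc3a2 (chromosome 19, 8706882 to 8723369) had 519.8, 457 and 602 CPM in AMH 1, 2 and 3, against 559, 538 and 644 CPM in controls 1, 2 and 3. The groups overlapped (log2 fold change -0.14, SE 0.18, edgeR adjusted p = 0.531), and the sign turned positive with library size only (0.12) and with scaling to the oocyte list (0.57). The other heavy subunit, Slc3a1, had 1 to 11 counts per library and was not tested.

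Slc7a11 (chromosome 3, 49892526 to 50443614), the cystine and glutamate exchanger that feeds glutathione synthesis, had 70.1, 105 and 107 CPM in AMH 1, 2 and 3, against 155, 192 and 149.6 CPM in controls 1, 2 and 3. Every AMH library lay below every control, with AMH 1 the lowest (log2 fold change -0.81, SE 0.22, edgeR adjusted p = 0.116, and -0.068 with oocyte-list scaling). Slc7a5, a large neutral amino acid exchanger that carries leucine, had 79.1, 98.3 and 79.2 CPM in AMH 1, 2 and 3, against 75.4, 84.5 and 105 CPM in controls 1, 2 and 3, with groups that overlapped (log2 fold change -0.047, SE 0.19, edgeR adjusted p = 0.852). Its sign turned positive with library size only (0.23), with oocyte-list scaling (0.71) and without control 3 (0.088).

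Slc7a8, a neutral amino acid exchanger related to Slc7a5, had 208, 265 and 192 CPM in AMH 1, 2 and 3, against 89.7, 64.3 and 278 CPM in controls 1, 2 and 3. Control 3 was the highest of the 6 libraries and controls 1 and 2 the lowest (log2 fold change 0.62, SE 0.54, edgeR adjusted p = 0.378). Without control 3 the log2 fold change was 1.52 and edgeR called it higher, and with the cumulus marker sum as a covariate it was -0.23. Slc7a6, which exchanges cationic for neutral amino acids, had 20.05, 20.1 and 13.9 CPM in AMH 1, 2 and 3, against 3.88, 3.83 and 17.5 CPM in controls 1, 2 and 3, in the same order of controls (log2 fold change 1.10, SE 0.64, edgeR adjusted p = 0.218). Slc7a7, of the same function, had only 2.55, 3.07 and 2.96 CPM in AMH 1, 2 and 3, against 1.24, 1.43 and 1.58 CPM in controls 1, 2 and 3, but the libraries of each group lay close together and the groups did not overlap (log2 fold change 1.01, SE 0.28, edgeR adjusted p = 0.116). Slc7a7 overlaps Oxa1l on the other strand.

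The cationic amino acid transporters, which bring in arginine, lysine and ornithine, also split. Slc7a2 (chromosome 8, 40862396 to 40922308) had 102, 108 and 158 CPM in AMH 1, 2 and 3, against 211, 244 and 197 CPM in controls 1, 2 and 3, that is 123 ± 30.6 CPM in AMH libraries and 217 ± 24.3 CPM in control libraries (SD, n = 3 each). All AMH libraries lay below all controls, with AMH 3 nearest to them (log2 fold change -0.82, SE 0.21, edgeR adjusted p = 0.116, and -0.11 with oocyte-list scaling). Slc7a1, the widely expressed form, had 54.3, 71.1 and 62.2 CPM in AMH 1, 2 and 3, against 42.5, 38.8 and 56.3 CPM in controls 1, 2 and 3. Control 3 reached the AMH range and controls 1 and 2 lay below it (log2 fold change 0.45, SE 0.21, edgeR adjusted p = 0.151). Slc7a4, a relative with no established substrate, had 27.7, 20.7 and 15.4 CPM in AMH 1, 2 and 3, against 4.67, 1.14 and 14.9 CPM in controls 1, 2 and 3, with AMH 3 just above control 3 (log2 fold change 1.62, SE 0.83, edgeR adjusted p = 0.177). Slc7a3 had 0.739 to 0.824 CPM in AMH libraries and 0.156 to 0.698 CPM in control libraries, and also did not overlap between groups.

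**Figure D3:**
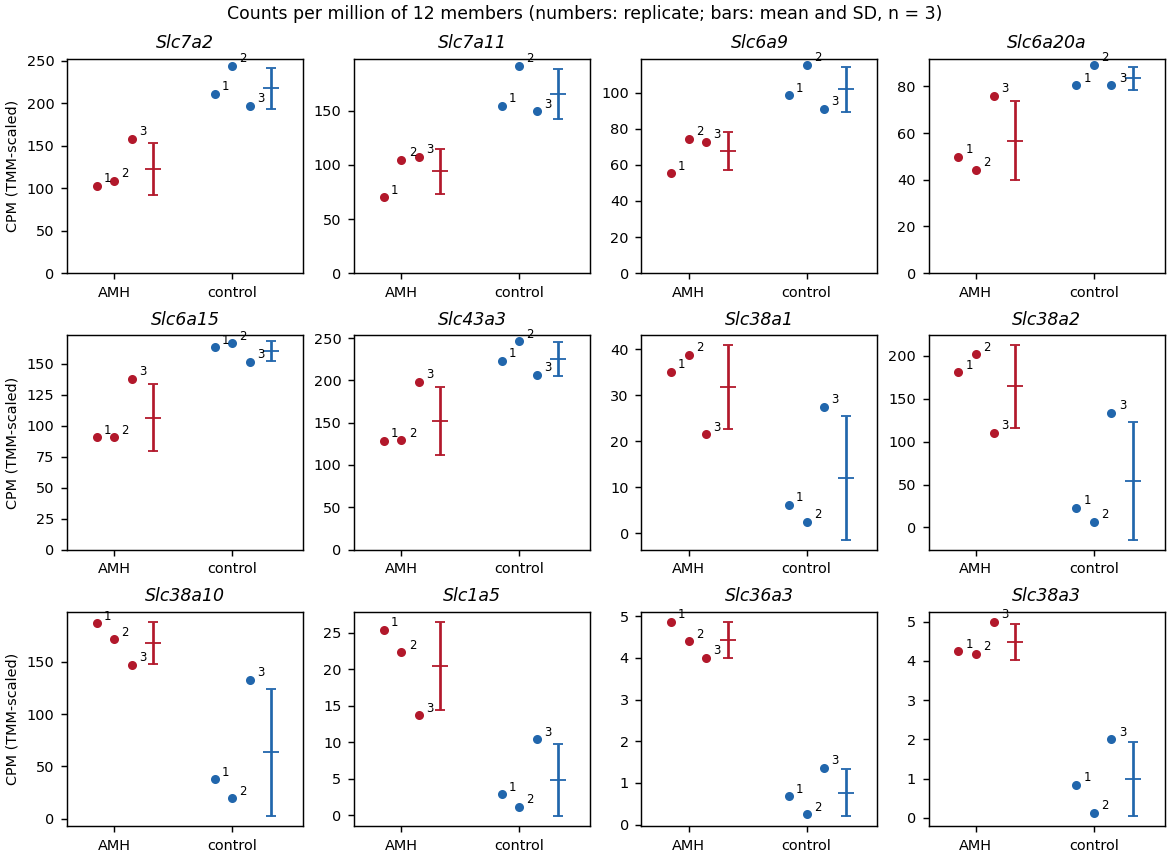
TMM-scaled CPM of 12 members in each library (numbers give the replicate), with the mean and SD of 3 libraries beside the points; AMH is red and stands left, control is blue. Slc7a2, Slc7a11, Slc6a9, Slc6a20a, Slc6a15 and Slc43a3 lie lower in all AMH libraries than in any control on this scaling. Scaled to the oocyte list, the fitted log2 fold changes of Slc7a2 and Slc7a11 are -0.11 and -0.068, and the sign of the last 4 turns. For Slc38a1 and Slc38a2 control 3 lies among or near the AMH libraries while controls 1 and 2 lie far below.

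In the Slc1 family, 4 of 5 members tested were higher in every AMH library than in every control, as were 26.9% of all genes tested. The 4 were Slc1a5, Slc1a4, Slc1a3 and Slc1a6. Slc1a6 had few reads, with 13 to 23 counts in AMH libraries and 1 to 8 counts in control libraries. Slc1a5 (chromosome 7, 16781340 to 16798274), an exchanger of glutamine and other neutral amino acids, had 25.4, 22.3 and 13.7 CPM in AMH 1, 2 and 3, against 2.87, 1.12 and 10.4 CPM in controls 1, 2 and 3. AMH 3 and control 3 were the closest libraries across the groups (log2 fold change 2.09, SE 0.78, edgeR adjusted p = 0.120). Slc1a4, a carrier of alanine, serine and cysteine, had 6.71 to 14.5 CPM in AMH libraries and 0.125 to 5.44 CPM in control libraries, again without overlap (log2 fold change 2.32, SE 1.10, edgeR adjusted p = 0.156). Slc1a3 (chromosome 15, 8634124 to 8710764), a glutamate transporter, had 8.29, 3.65 and 1.40 CPM in AMH 1, 2 and 3, against 0.465, 0.405 and 0.713 CPM in controls 1, 2 and 3. AMH 1 stood far above AMH 3, the groups did not overlap, and the fold change was the largest of the 46 members (log2 fold change 3.07, SE 0.69, edgeR adjusted p = 0.116). Slc1a1, a glutamate, aspartate and cysteine transporter, had 2.37 to 3.57 CPM in AMH libraries and 3.46 to 4.79 CPM in control libraries, with an overlap of AMH 3 with control 2 (log2 fold change -0.44, and 0.28 with oocyte-list scaling).

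All 11 sodium-coupled Slc38 carriers were tested, with 8 above 0 and 3 below (median log2 fold change 1.31). Their summed CPM was 467, 477 and 386 CPM in AMH 1, 2 and 3, against 102, 61.8 and 371 CPM in controls 1, 2 and 3. Control 3 stood close under AMH 3 and far above the other controls. Slc38a2, a carrier of small neutral amino acids that cells raise when starved of amino acids, had 181, 202 and 110.3 CPM in AMH 1, 2 and 3, against 23.0, 6.80 and 134 CPM in controls 1, 2 and 3. Control 3 exceeded AMH 3, and controls 1 and 2 were the lowest libraries (log2 fold change 1.59, SE 0.97, edgeR adjusted p = 0.236). Slc38a1, of the same transport system, had 35.1, 38.8 and 21.6 CPM in AMH 1, 2 and 3, against 6.17, 2.52 and 27.5 CPM in controls 1, 2 and 3 and the same order of libraries (log2 fold change 1.40, SE 0.82, edgeR adjusted p = 0.222). Without control 3 edgeR called both higher, with log2 fold changes of 3.45 for Slc38a2 and 2.86 for Slc38a1.

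Slc38a10 (chromosome 11, 120103960 to 120151346) had 187, 171 and 147 CPM in AMH 1, 2 and 3, against 37.7, 19.5 and 133 CPM in controls 1, 2 and 3. The groups did not overlap, though control 3 lay close under AMH 3 (log2 fold change 1.41, SE 0.66, edgeR adjusted p = 0.155). Slc38a5, a carrier of glutamine, asparagine and histidine, had 17.1, 15.5 and 52.0 CPM in AMH 1, 2 and 3, against 3.35, 3.29 and 27.5 CPM in controls 1, 2 and 3. Here AMH 3 stood far above AMH 1 and 2, and control 3 above both of them (log2 fold change 1.31, SE 0.96, edgeR adjusted p = 0.306). Slc38a7, a lysosomal carrier of glutamine, had 27.1, 29.9 and 33.8 CPM in AMH 1, 2 and 3, against 17.4, 16.6 and 31.6 CPM in controls 1, 2 and 3, with groups that overlapped (log2 fold change 0.47, SE 0.30, edgeR adjusted p = 0.248); with the cumulus covariate its log2 fold change was -0.0091.

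Slc38a3 (chromosome 9, 107650634 to 107669530), the carrier known from mouse cumulus cells, had 4.25, 4.19 and 5.004 CPM in AMH 1, 2 and 3, against 0.838, 0.125 and 2.00 CPM in controls 1, 2 and 3. The AMH libraries lay close together and above all controls (log2 fold change 2.18, SE 0.83, edgeR adjusted p = 0.122). With the cumulus marker sum as a covariate its log2 fold change was 1.06. Slc38a9, a lysosomal arginine sensor, overlapped between groups, with 8.99 to 11.6 CPM in AMH libraries and 8.82 to 11.8 CPM in control libraries. Slc38a4 and Slc38a6 did not overlap between groups and were higher in AMH libraries, at up to 4.56 and 0.877 CPM, while Slc38a8 and Slc38a11 overlapped.

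**Figure D4:**
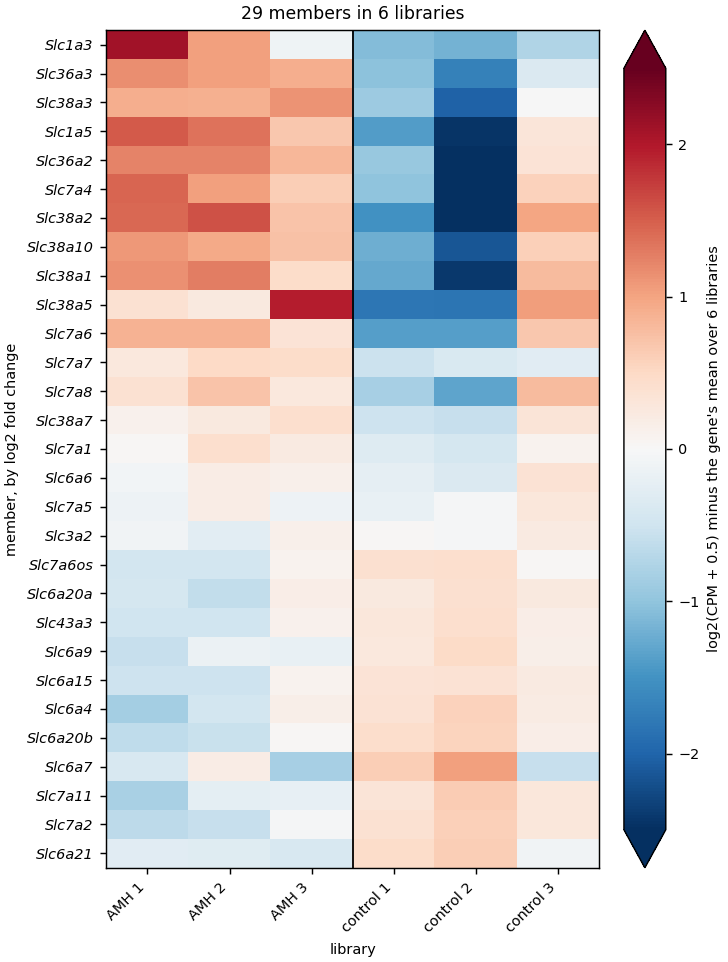
Heat map of 29 members (rows, ordered by fitted log2 fold change) in the 6 libraries (columns, AMH left of the line), coloured by log2(CPM + 0.5) minus the gene's mean. Upper rows such as Slc1a5 and Slc38a2 are low in controls 1 and 2 and less so in control 3. Lower rows such as Slc7a2 and Slc6a15 are low in AMH 1 and 2 and less so in AMH 3. This does not hold for every lower row: in Slc6a21 and Slc6a7 AMH 3 is the lowest library.

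In the Slc36 family, listed here as proton-coupled transporters, Slc36a3, Slc36a2 and Slc36a4 were above 0 and Slc36a1 below. Slc36a2 had 16.2, 16.0 and 12.1 CPM in AMH 1, 2 and 3, against 3.13, 0.577 and 8.43 CPM in controls 1, 2 and 3, with no overlap (log2 fold change 1.87, SE 0.83, edgeR adjusted p = 0.145). Slc36a3 had 4.87, 4.40 and 3.997 CPM in AMH 1, 2 and 3, against 0.682, 0.249 and 1.37 CPM in controls 1, 2 and 3, and every AMH library lay well above the highest control (log2 fold change 2.53, SE 0.60, edgeR adjusted p = 0.116). It overlaps the antisense gene Slc36a3os, which had 30 to 56 counts in AMH libraries and 0 to 15 counts in control libraries, so part of the reads of either may belong to the other. Slc36a4 had 7.58 to 9.35 CPM in AMH libraries and 0.623 to 8.37 CPM in control libraries, with control 3 inside the AMH range. Slc36a1, a lysosomal form, had 3.80 to 5.87 CPM in AMH libraries and 6.23 to 7.58 CPM in control libraries, a difference without overlap but with an edgeR adjusted p of 0.185 (log2 fold change -0.53, 0.18 with oocyte-list scaling).

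The Slc6 carriers of glycine, proline, taurine, GABA and creatine were lower in AMH libraries for 5 of 7 members tested, of which Slc6a9, Slc6a20a, Slc6a7 and Slc6a11 turned sign with scaling to the oocyte list (median log2 fold change -0.59). Slc6a9 (chromosome 4, 117834506 to 117875198), the glycine transporter by which mouse oocytes and embryos control their volume, had 55.4, 74.6 and 72.7 CPM in AMH 1, 2 and 3, against 98.6, 116 and 91.2 CPM in controls 1, 2 and 3. No AMH library reached a control (log2 fold change -0.59, SE 0.19, edgeR adjusted p = 0.116, and 0.17 with oocyte-list scaling). Slc6a20a, a carrier of proline and betaine in early mouse embryos, had 49.8, 44.2 and 75.9 CPM in AMH 1, 2 and 3, against 80.4, 89.2 and 80.4 CPM in controls 1, 2 and 3. AMH 3 lay close under the controls and AMH 1 and 2 well below (log2 fold change -0.56, SE 0.23, edgeR adjusted p = 0.131, and 0.13 with oocyte-list scaling).

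Its close paralogue Slc6a20b had 13.9, 14.7 and 22.4 CPM in AMH 1, 2 and 3, against 29.6, 32.6 and 24.5 CPM in controls 1, 2 and 3 (log2 fold change -0.77, SE 0.26, edgeR adjusted p = 0.116, and -0.061 with oocyte-list scaling). Both lie side by side on chromosome 9, and reads from stretches they share could have been assigned to either. Slc6a6, the taurine transporter and the second most counted member, had 279, 333 and 319.6 CPM in AMH 1, 2 and 3, against 253, 229 and 377 CPM in controls 1, 2 and 3. Control 3 was the highest library and the groups overlapped (log2 fold change 0.12, SE 0.23, edgeR adjusted p = 0.685); the sign turned with upper-quartile scaling (-0.078), with the cumulus covariate (-0.24) and without control 2 (-0.032). Slc6a7, a proline transporter, had 19.2, 28.9 and 14.1 CPM in AMH 1, 2 and 3, against 39.1, 52.3 and 16.9 CPM in controls 1, 2 and 3. Here AMH 3 and control 3 were the lowest libraries of their groups (log2 fold change -0.80, SE 0.46, edgeR adjusted p = 0.214, 0.098 with oocyte-list scaling and 0.26 with the cumulus covariate). Slc6a8, the creatine transporter, had 2.27 to 3.91 CPM in AMH libraries and 0.0935 to 2.24 CPM in control libraries.

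Of the Slc6 carriers of neutral amino acids, Slc6a15 (chromosome 10, 103367783 to 103419377), which takes up branched-chain amino acids and proline, had 90.6, 90.7 and 138 CPM in AMH 1, 2 and 3, against 163, 166 and 151 CPM in controls 1, 2 and 3. The 3 controls lay close together, and all AMH libraries below them, AMH 3 nearest (log2 fold change -0.59, SE 0.21, edgeR adjusted p = 0.118, and 0.11 with oocyte-list scaling). Slc6a17 had 10 to 24 counts in AMH libraries, 0 in controls 1 and 2 and 30 in control 3, and Slc6a14 had at most 24 counts in any library. The serotonin transporter Slc6a4 had 7.44, 9.89 and 15.2 CPM in AMH 1, 2 and 3, against 17.9, 20.9 and 16.1 CPM in controls 1, 2 and 3, again without overlap (log2 fold change -0.75, SE 0.31, edgeR adjusted p = 0.131, and -0.067 with oocyte-list scaling). Slc6a21, which stood in no role list, had 1.54, 1.49 and 1.36 CPM in AMH 1, 2 and 3, against 2.90, 3.26 and 1.84 CPM in controls 1, 2 and 3 (log2 fold change -0.86, SE 0.33, edgeR adjusted p = 0.120, and -0.055 with oocyte-list scaling).

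In the Slc43 family Slc43a3 (chromosome 2, 84936579 to 84958509), the purine nucleobase carrier, had 129, 129 and 198 CPM in AMH 1, 2 and 3, against 223, 246 and 206 CPM in controls 1, 2 and 3. AMH 3 lay just under control 3, the lowest control (log2 fold change -0.57, SE 0.22, edgeR adjusted p = 0.120, and 0.13 with oocyte-list scaling). Slc43a2, a carrier of large neutral amino acids, had 9.08 to 9.46 CPM in AMH libraries and 3.33 to 7.86 CPM in control libraries, and Slc43a1, of like substrate, had 0.824 to 1.28 CPM and 0.343 to 1.05 CPM. Slc7a6os, the gene that is not a carrier, had 98.3, 98.4 and 144 CPM in AMH 1, 2 and 3, against 179, 183 and 139 CPM in controls 1, 2 and 3, with AMH 3 above control 3 (log2 fold change -0.56, SE 0.22, edgeR adjusted p = 0.123, and 0.16 with oocyte-list scaling).

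Neighbours on a chromosome shared a direction in some places and not in others. Slc36a3, Slc36a2 and Slc36a1 follow each other on chromosome 11 (55124815 to 55151708, 55158470 to 55185077 and 55204350 to 55236330, GRCm38), with log2 fold changes of 2.53, 1.87 and -0.53. Slc7a6 (chromosome 8, 106168857 to 106198706) and Slc7a6os (chromosome 8, 106200717 to 106210935) are adjacent as well, at 1.10 and -0.56. By contrast Slc38a1, Slc38a2 and Slc38a4, which lie near each other on chromosome 15 (96571418 to 96642913, 96687392 to 96699730 and 96994820 to 97055956), had 1.40, 1.59 and 1.89. The promoter windows with the amino acid response core were split too: Slc7a11 and Slc6a21 had -0.81 and -0.86, and Slc1a4 and Slc7a7 had 2.32 and 1.01. None of these genes passed edgeR's adjusted test with all 6 libraries.

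Which libraries carried the differences varied by gene. For 10 of 46 members (21.7%) controls 1 and 2 lay below every AMH library and control 3 did not, where 12.5% of all genes tested did so. The 10 were Slc6a6, Slc7a8, Slc38a2, Slc7a1, Slc38a7, Slc38a1, Slc38a5, Slc7a6, Slc36a4 and Slc6a17. For 3 of 46 (6.52%), namely Slc3a2, Slc7a6os and Slc1a1, AMH 1 and 2 lay below every control and AMH 3 did not, against 11.2% of all genes. Both patterns were chosen after the values were seen. Of the 15 members higher without overlap, control 3 was the highest control in 14 (93.3%, against 82.6% of all genes higher without overlap). Of the 11 lower without overlap, AMH 3 was the highest AMH library in 8 (72.7%, against 74.9%). Cumulus marker sums in the same libraries were 2422 to 2716 CPM in the AMH group and 489, 291 and 2831 CPM in controls 1, 2 and 3. Oocyte marker sums were lowest in AMH 1 and 2. The part of either sum in these results was not tested. With the log2 cumulus marker sum as a covariate edgeR called 0 of the 46 members and 0 of all 18868 genes tested. The median log2 fold change was then 0.18 for the members and 0.042 for all genes tested. Among the controls only control 3 had a sum near those of the AMH libraries, so this fit leans on that library and cannot decide the part of cumulus cells. In that fit the log2 fold change was 0.37 for Slc38a2 (against 1.59 without the covariate), 0.30 for Slc38a1 (against 1.40 without the covariate), 0.40 for Slc38a10 (against 1.41 without the covariate), 0.18 for Slc38a5 (against 1.31 without the covariate) and 0.20 for Slc7a6 (against 1.10 without the covariate). It was 2.65 for Slc1a3 (against 3.07 without the covariate), 1.66 for Slc36a3 (against 2.53 without the covariate) and -0.68 for Slc7a2 (against -0.82 without the covariate).

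**Figure D5:**
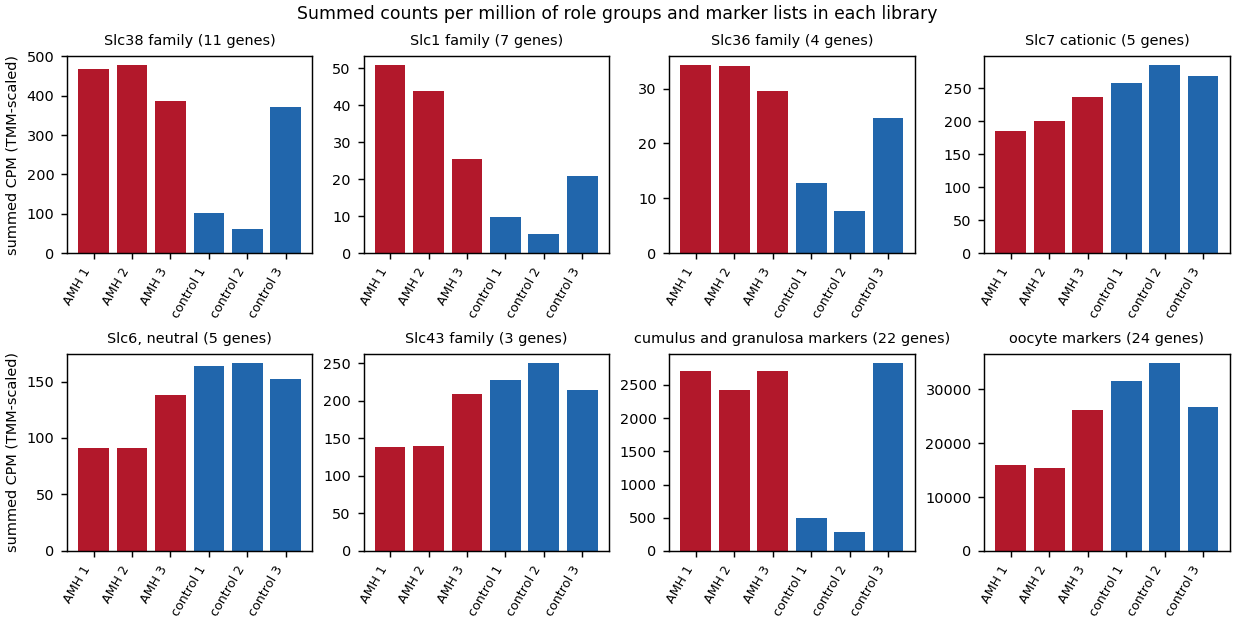
Summed TMM-scaled CPM per library of 6 role groups and 2 marker lists (AMH red and left, control blue); each panel has its own scale from 0. The Slc38 sum is 386 to 477 CPM in AMH libraries and 61.8 to 371 CPM in controls, and control 3 resembles the AMH libraries there as it does for the cumulus and granulosa markers. Whether these sums are linked was not tested.

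Of the 64 members 18 did not pass the filter on low counts. Slc7a12, Slc7a10, Slc6a18 and Slc6a19 had 0 counts in all 6 libraries, which at the limit of 3 counts allows up to 0.0370 to 0.0468 CPM per library (counting error only). Counts in at least 1 library were found for 13, and 3 of them are singled out here after their values were seen. Slc6a2, the noradrenaline transporter, had 73, 122 and 6 counts in AMH 1, 2 and 3, against 6, 0 and 5 counts in controls 1, 2 and 3, so AMH 1 and 2 set its level. Slc6a5, a glycine transporter of neurons, had 7, 1 and 38 counts in AMH 1, 2 and 3, against 11, 0 and 6 counts in controls 1, 2 and 3. Slc7a9 had 4 to 9 counts in AMH libraries and 6 to 36 counts in control libraries. The remaining 10, Slc6a3, Slc3a1, Slc6a13, Slc6a16, Slc7a14, Slc6a12, Slc7a15, Slc1a2, Slc1a7 and Slc7a13, had at most 14 counts in any library. Slc1a6 and Slc6a11, which passed the filter, had 1 to 23 and 13 to 30 counts per library.

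Other genes of amino acid handling were read from 3 lists, and edgeR called 0 of them. Of 19 tested carriers of amino acids and peptides outside these families, 7 were above 0 and 12 below (median log2 fold change -0.28), with 6 higher and 6 lower without overlap, against 26.9% and 23.3% of all genes tested. The mitochondrial ornithine carrier Slc25a15 had 241 ± 69.0 CPM in AMH and 394 ± 37.3 CPM in control libraries (SD, n = 3 each), and the mitochondrial serine carrier Sfxn1 had 48.8 ± 13.7 CPM in AMH and 15.5 ± 9.98 CPM in control libraries. Of 32 tested genes of the amino acid response and of amino acid synthesis, 24 were above 0 and 8 below (median 0.43), with 11 higher and 4 lower without overlap, against the same 26.9% and 23.3%. Eif2ak4, the kinase that senses uncharged tRNA, had 171 ± 38.5 CPM in AMH and 280.1 ± 21.4 CPM in control libraries, and Cebpg, a partner of ATF4, had 70.1 ± 12.8 CPM in AMH and 107 ± 3.88 CPM in control libraries. Cbs, an enzyme of cysteine synthesis, had 82.4, 14.2 and 4.70 CPM in AMH 1, 2 and 3, against 2.20, 0.951 and 2.35 CPM in controls 1, 2 and 3, so AMH 1 set its mean. Of 22 tested cytosolic aminoacyl-tRNA synthetase genes and scaffolds, 16 were above 0 and 6 below (median 0.23), with 8 higher and 5 lower without overlap, again beside 26.9% and 23.3% of all genes. Seryl-tRNA synthetase (Sars) had 67.2 ± 14.6 CPM in AMH and 38.7 ± 6.31 CPM in control libraries, while isoleucyl-tRNA synthetase (Iars) had 154 ± 19.2 CPM in AMH and 225 ± 20.8 CPM in control libraries.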

How the data were processed

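Raw counts for each Ensembl gene and matching FPKM values were deposited, 1 column a library. An FPKM value is the deposited count over gene length and over a single size for its library. HISAT2 2.0.5, featureCounts 1.5.0-p3, DESeq2 1.20.0 and the GRCm38 and mm10 builds appear in the submitters' processing notes, with no settings. RNA came from frozen oocytes by a SMARTV4 kit, and both directional and non-directional libraries are described, per the labels' protocols. Counting limits cover counting error only. No row lacked a gene. All 64 members were found in GENCODE M21, 62 with identical positions.

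edgeR 4.0.16 (R 4.3.3; TMM, filterByExpr, robust quasi-likelihood test, group only, Benjamini-Hochberg at 0.05 over 18868 genes) was the main test, and SEs came from its F statistic. Alternatives were DESeq2 1.42.0, limma 3.58.1 (voom, and log2(FPKM + 1) in genes above 1 FPKM in 3 libraries), other scalings and filters, a cumulus marker covariate, the replicate block and each library left out.

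Values per library are given for members with a mean of at least 10 CPM, for the most counted member of each role, and for members without overlap, with a mean of at least 1 CPM and an unadjusted p under 0.05; others are named with ranges, and 1 member is not reported here. From each list outside the members, at most 3 genes of small p with at least 5 CPM are named. The members, lists and tests were chosen with earlier results of these data known. No 2 libraries were duplicates (lowest chi-square per degree of freedom 55.9, AMH 3 with control 3).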

Additional observations from a re-analysis of the deposited data

How the results depend on the processing

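With all 6 libraries edgeR called 0 members, and 0 of all genes tested, under each scaling, filter and covariate tried. Limma-voom and limma on FPKM also called 0 of either. DESeq2 called 5 members higher and 3 lower (3067 genes higher and 1468 lower of all tested). Leaving out 1 library gave 0 to 22 members higher and 0 to 6 lower, and 0 to 5291 genes higher and 0 to 2222 lower of all tested, with calls only without control 3 or AMH 3. With the replicate number as a block (replicate block) edgeR called 0 members, with a median log2 fold change of 0.59 against 0.50; it changed no call. Same-numbered libraries did not deviate together (correlations 0.024, -0.15 and -0.35 for numbers 1, 2 and 3), not every library correlated best with its own number, and the numbers are not taken as pairs. The median of the members was 1.201 with scaling to the oocyte list and stayed between 0.01 and 0.76 elsewhere. The lowest value came from limma on log2(FPKM + 1) with no filter (0.0064 over all genes) and the highest from library size only. Members without overlap numbered 15 to 25 higher and 11 to 14 lower when 1 library was left out, and those lower numbered 6 with library size only and 0 with scaling to the oocyte list. Leaving out a library can only add genes without overlap, for members and other genes alike. These 2 scalings also moved the median log2 fold change of all genes tested to 0.26 and 0.74. Shares of all genes without overlap were not taken in these settings, so the counts show nothing particular to the members. The cause of these shifts was not tested.

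Of 29 members given per library, the sign of the log2 fold change turned for 8 with scaling to the oocyte list: Slc3a2 (0.57), Slc43a3 (0.13), Slc7a6os (0.16), Slc6a15 (0.11), Slc7a5 (0.71), Slc6a9 (0.17), Slc6a20a (0.13) and Slc6a7 (0.098). It turned for Slc3a2 (0.12) and Slc7a5 (0.23) with library size only, for Slc6a6 with upper-quartile scaling (-0.078), and with the cumulus covariate for Slc6a6 (-0.24), Slc7a8 (-0.23), Slc6a7 (0.26) and Slc38a7 (-0.0091). With 1 library left out Slc6a6 ran from -0.032 to 0.36 and Slc7a5 from -0.17 to 0.088. Members of a few counts per library have the least precise values, and 24 of the 64 members overlap a gene on the other strand.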
